A study of Mus musculus with 2 samples.

Results

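Endothelial cells, which line blood vessels, made up 140 of the 25395 cells within the limits used here in single-cell transcriptomes of the mouse fetal ovary at E15.5, the embryonic day of collection. They were chosen by their own transcripts. A cell was kept when its barcode held at least 3000 UMIs (unique molecular identifiers, each marking 1 captured transcript) and under 10% mitochondrial UMIs. A kept cell counted as somatic when Dazl, Ddx4, Smc1b, Sycp1, Sycp3 and Stra8, genes of germ cells, summed to under 10 UMIs per 10000. A somatic cell counted as endothelial when Pecam1, Cdh5, Kdr, Egfl7, Emcn and Cldn5 summed to at least 8 UMIs per 10000, with at least 3 of these 6 genes detected. This gave 109 endothelial cells of 4554 somatic cells in the knockout library and 31 of 2128 in the wild-type library. Because measured values selected the cells, their levels against other cells are given as descriptions and no test was made of them.

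The study asked whether loss of the glucocorticoid receptor (GR), a steroid hormone receptor encoded by Nr3c1, alters the fetal ovary. The knockout embryos (KO) were homozygous for a constitutive deletion of Nr3c1 exon 3, made with a β-actin Cre and so carried by every cell, and the wild-type embryos (WT) carried no deletion. Embryos of both genotypes carried the germ cell reporter Pou5f1-EGFP, and the strain of both libraries is given as Tg(Pou5f1-EGFP)2Mnn Nr3c1tm1.1Jda. Ovaries of 2 KO and 4 WT embryos were freed of the mesonephros and pooled by genotype, and sorted GFP-positive germ cells were mixed with GFP-negative somatic cells before droplet capture. Each genotype is therefore 1 library of 1 pool. Genotype cannot be told apart from pool, sort or capture, and no p-value is given.

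Endothelial cells grow new vessels in response to VEGF, which is released by neighbouring cells and read by the receptors Kdr and Flt1. Notch signalling between neighbouring endothelial cells, led by the ligand Dll4, separates sprouting from following cells and arteries from veins. Transcription factors of the ETS and SOXF families hold the endothelial programme, and pericytes recruited through Pdgfb stabilise the vessel wall. In the fetal gonad, vessels enter from the neighbouring mesonephros and supply the growing germ cells and their supporting cells.

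The 2 libraries held 186117981 UMIs (KO) and 168483330 UMIs (WT). Endothelial cells had a median of 7577 UMIs in KO and 11959 in WT, close to the 7853 and 11874 of the other somatic cells, and they summed to 940677 and 376323 UMIs. Levels below are UMIs of a gene per 1000000 UMIs of a cell group (CPM), so that 3 UMIs correspond to 3.19 CPM in KO and 7.97 CPM in WT endothelial cells. Values in brackets are 95% intervals, which cover counting error only. Scrublet, a doublet caller, marked 11 of the 109 KO cells (10.1%) and 0 of the 31 WT cells, against 1.69% and 0.620% of the other somatic cells. UMIs of at least 3 of 8 pregranulosa, stromal or epithelial markers were present in 19 KO and 3 WT endothelial cells, and 1 WT cell held 11242 of the 11255 haemoglobin UMIs of its group. The libraries shared 75 barcodes, 1 of which was an endothelial cell in KO.

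The 6 selection genes span adhesion, junctions and signalling. Pecam1 encodes the adhesion molecule CD31, and Cdh5 encodes VE-cadherin, the cadherin of endothelial junctions. Pecam1 stood at 344 CPM in KO and 468 CPM in WT endothelial cells, against 1.27 and 1.65 CPM in the other somatic cells. Cdh5 stood at 499.6 CPM in KO and 616 CPM in WT, against 0.486 and 0.845 CPM. Cldn5, a claudin of endothelial tight junctions, stood at 752 CPM in KO and 755 CPM in WT, against 0.135 and 0.192 CPM. These genes were near 0 outside the endothelial group. Kdr, the main VEGF receptor, was the least restricted of the 6, at 333 CPM in KO and 345 CPM in WT against 35.5 and 30.5 CPM. Egfl7, a matrix protein released by endothelial cells, had 1258 CPM in KO and 1459 CPM in WT against 20.5 and 19.1 CPM, and it was detected in every endothelial cell of both libraries. Emcn, which encodes the surface sialomucin endomucin, had 602 CPM in KO and 909 CPM in WT against 2.35 and 1.65 CPM, but 107 and 57.3 CPM in the 64 KO and 41 WT cells that carried perivascular markers. In GRCm38 the genes lie at chromosome 11, 106654217 to 106750628 (Pecam1), chromosome 8, 104101625 to 104144511 (Cdh5), chromosome 5, 75932827 to 75978458 (Kdr), chromosome 2, 26580014 to 26593120 (Egfl7), chromosome 3, 137341067 to 137432185 (Emcn) and chromosome 16, 18776847 to 18778262 (Cldn5).

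The summed level of these genes separated the group from the remaining somatic cells, as the rule requires. It ran from 11.4 to 88.4 UMIs per 10000 in KO endothelial cells (median 39.7) and from 21.9 to 78.6 in WT (median 47.2), and it was 0 in 68.3% of KO and 63.0% of WT other somatic cells. All 6 genes were detected in 105 of the 140 cells. Just inside the threshold, between 8 and 16 UMIs per 10000, lay 4 KO and 0 WT endothelial cells. Just outside it, between 4 and 8, lay 51 KO and 13 WT somatic cells. A further 3 KO cells reached 8 with fewer than 3 genes detected and were not members.

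**Figure D1:**
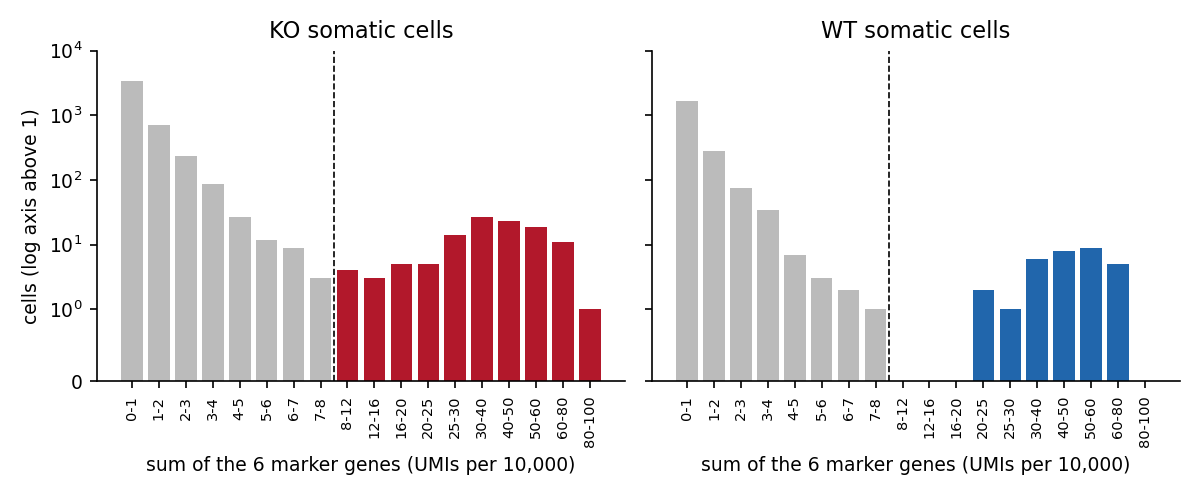
Number of somatic cells (vertical axis, logarithmic above 1) by summed level of the 6 selection genes in UMIs per 10000 (horizontal axis, in steps), in the KO and the WT library. Coloured bars lie at 8 or more, to the right of the dashed line, and include 3 KO cells with fewer than 3 of the genes, while most grey cells lie near 0.

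Many genes of this kind are bound by ETS transcription factors, so the region before the start of the named genes was searched for an ETS-type word, CAGGAAG, on both strands (reverse complement CTTCCTG). A window of 300 bases from RefSeq (GRCm38.p6), 250 before and 50 after a start, was found for 18 of the 30 genes named from the comparison with other somatic cells, with 24 windows in all. The word was present in 7 of these 24 windows, from 5 of the 18 genes, and in 4359 of all 32851 windows (13.3%). The overlapping windows of Ctla2a hold the same match. It was present in 39 of 248 windows (15.7%) of the genes 4-fold or more higher in endothelial cells and in 11.9% of the windows of tested genes. A second ETS-type word, CCGGAAG, was in 0 of the 24 windows and in 8.86% of all windows, and it was in 7 of 248 windows (2.82%) of the higher genes against 19.7% of the windows of tested genes. The 2 ETS-type words thus gave different pictures. A SOX-type word, AACAATG (reverse complement CATTGTT), was in 1 of 24 and in 3.78% of all windows, and in 2.42% of windows of the higher genes against 1.77% of those of tested genes. Such a match is a description of letters, and binding was not measured here. The 200 bases before the start are shown for Egfl7 and Emcn, which are selection genes, and for Erg, an ETS factor among the named genes, each 5′ to 3′ on its own gene's strand with the matched words in capitals. They lie at chr2:26580883-26581082 (Egfl7, plus strand), chr3:137340878-137341077 (Emcn, plus strand) and chr16:95459349-95459548 (Erg, minus strand).
Egfl7: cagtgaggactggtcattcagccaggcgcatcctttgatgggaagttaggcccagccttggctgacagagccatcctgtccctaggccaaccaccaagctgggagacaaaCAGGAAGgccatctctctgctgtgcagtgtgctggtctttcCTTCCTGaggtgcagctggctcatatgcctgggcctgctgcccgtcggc
Emcn: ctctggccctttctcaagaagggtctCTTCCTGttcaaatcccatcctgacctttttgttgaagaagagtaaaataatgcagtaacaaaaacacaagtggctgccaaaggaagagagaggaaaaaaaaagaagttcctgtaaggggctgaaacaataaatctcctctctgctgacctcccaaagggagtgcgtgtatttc
Erg: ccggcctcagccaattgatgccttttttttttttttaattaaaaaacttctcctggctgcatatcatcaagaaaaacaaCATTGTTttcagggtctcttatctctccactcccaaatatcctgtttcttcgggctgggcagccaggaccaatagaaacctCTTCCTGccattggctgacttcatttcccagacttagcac

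Counted from the start site, the Egfl7 matches begin at −90 and −49, the Emcn match at −174, and the Erg window holds the SOX-type word at −121 and the ETS-type word at −40. The windows shown were among those with a match. Egfl7 and Erg have further RefSeq starts, whose windows are not shown. The further Erg windows held no match, and of the further Egfl7 windows 1 held the ETS-type word, at −81, and the other held none.

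Endothelial cells were 2.39% of KO somatic cells (1.97 to 2.88) and 1.46% of WT somatic cells (0.992 to 2.06). The log2 ratio of these shares, KO over WT, was 0.72 (0.13 to 1.34). Of all kept cells they were 0.686% (0.564 to 0.827) and 0.326% (0.222 to 0.462). The mixing of sorted cells set the proportion of germ to somatic cells, so the share of all kept cells follows that mixture. The share among somatic cells rests on 31 WT cells of 1 pool, and no replicate tells how far it varies between ovaries.

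Endothelial cells were set against the 4445 KO and 2097 WT other somatic cells, within each library. A gene was tested when the mean of its 4 CPM values was at least 20, which left 5776 genes, and it was called when it differed by 4-fold or more in the same direction in both libraries. By this rule 252 genes (4.36%) were higher in endothelial cells and 214 (3.70%) were lower. The median log2 ratio of all tested genes was −0.01 in KO and −0.09 in WT. All 6 selection genes were among the higher genes, as the choice of cells requires.

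Ranked by the library with the smaller ratio, the leading gene outside the selection genes was Gpihbp1, which encodes the capillary protein that carries lipoprotein lipase to the vessel lumen (chromosome 15, 75596628 to 75599481). It stood at 387 CPM in KO and 428 CPM in WT endothelial cells, against 0.0810 and 0.0384 CPM in the other somatic cells. It was followed by Aplnr, the receptor of the peptide apelin, at 234 CPM in KO and 242 CPM in WT against 0.0540 and 0.0768 CPM. Both were close to absent outside the group. Fabp4, a fatty acid carrier of capillaries, stood at 91.4 CPM in KO and 329.5 CPM in WT, and other somatic cells held 1 UMI in KO and 0 in WT. Flt1, the high-affinity VEGF receptor, had 236 CPM in KO and 242 CPM in WT against 0.135 and 0.115 CPM. Tie1, an orphan receptor of the angiopoietin system, had 129 CPM in KO and 149 CPM in WT against 0.0810 and 0.0768 CPM. None of these 5 genes was in the rule, but they were named for their large ratios in cells chosen by other endothelial genes. A gene restricted to these cells passes the filter only through them, so these levels are descriptions and support nothing further.

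Among the remaining named genes, 3 belonged to 1 family of GTPases known from lymphocytes. Gimap4 stood at 179.7 CPM in KO and 157 CPM in WT endothelial cells and at 0.0270 and 0.0768 CPM in the other somatic cells. Gimap6 stood at 353 CPM in KO and 348 CPM in WT against 0.999 and 1.08 CPM. Gimap1 stood at 174 CPM in KO and 191 CPM in WT against 0.243 and 0.307 CPM. Ptprc, Tyrobp, Fcer1g and Csf1r, which define leukocytes, had 0 UMIs in the endothelial cells of both libraries. Other immune markers were detected, with a summed level of up to 5.36 UMIs per 10000 in KO and 0.929 in WT endothelial cells. No endothelial cell had UMIs of 3 immune markers. Plvap, the protein of the diaphragms that span fenestrae and caveolae, had 305 CPM in KO and 478 CPM in WT against 0.432 and 0.192 CPM. Icam2, a ligand for leukocyte integrins, had 415 CPM in KO and 436 CPM in WT against 1.16 and 0.922 CPM. Cd93, a lectin-like surface receptor, had 223 CPM in KO and 215 CPM in WT against 0.378 and 0.230 CPM. Ctla2a, a cysteine protease inhibitor, had 340.2 CPM in KO and 531 CPM in WT against 0.297 and 0.307 CPM. Adgrl4, an adhesion receptor coupled to G proteins, had 59.5 CPM in KO and 69.1 CPM in WT and no UMI in other somatic cells, which makes it at least 9.52 and 9.23 log2 units higher when 3 UMIs are allowed for in that whole group. The other named higher genes were 8430408G22Rik, Myct1, Ushbp1, Fam167b, Ccm2l, Pcdh12, Ly6c1, Klhl4, Sox17, Dll4 and Erg, with levels of 33.0 to 170.1 CPM in KO and 34.5 to 159 CPM in WT and at most 0.216 CPM in the other somatic cells.

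**Figure D2:**
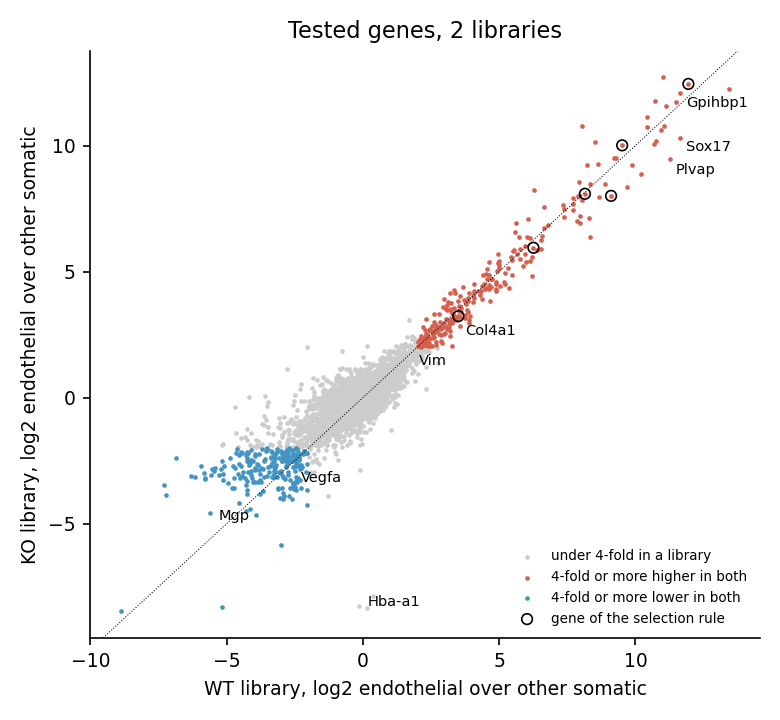
Each point is a tested gene, placed by its log2 ratio of endothelial over other somatic cells in WT (horizontal) and KO (vertical); red and blue points passed 4-fold in both libraries, and open circles mark the 6 selection genes. The 252 higher genes form an arm along the diagonal, which Gpihbp1 leads, and points far from the diagonal at the lower edge are haemoglobin genes.

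The named lower genes were Mgp, Fzd2, Mia and a pair of globins. Mgp, which encodes matrix Gla protein, stood at 8.50 CPM in KO and 5.31 CPM in WT endothelial cells against 202 and 260.2 CPM in the other somatic cells. Fzd2, a Wnt receptor, stood at 2.13 CPM in KO and 2.66 CPM in WT against 47.6 and 52.1 CPM, and Mia at 3.19 CPM in KO and 2.66 CPM in WT against 58.6 and 61.7 CPM. With cells thinned to 3000 UMIs, Fzd2 and Mia missed 4-fold in 1 library, with log2 ratios of −0.79 and −0.70, where 0 UMIs in a group are set to 3. The embryonic globins Hbb-y and Hba-x were also named, at 5.32 CPM in KO and 2.66 CPM in WT against 1892 and 1257 CPM and at 1.06 CPM in KO and 0 CPM in WT against 341 and 289 CPM. Their ratios changed sign when erythroid and immune cells were left out of the comparison, to 0.22 and 4.03 in the library nearer to 0, again with 0 set to 3 UMIs. Of 12 transcription factors of the gonad, 7 were tested and 6 were lower, against 3.70% of all tested genes. Their median log2 ratio was −2.29 in KO and −3.28 in WT. Wt1, needed for the formation of the gonad, stood at 37.2 CPM in KO and 7.97 CPM in WT against 179 and 185 CPM. Gata4 stood at 15.9 CPM in KO and 0 CPM in WT against 75.1 and 77.6 CPM, and Lhx9 at 31.9 CPM in KO and 7.97 CPM in WT against 208 and 176 CPM. Summed, the 12 genes stood at 225 CPM in KO and 114 CPM in WT endothelial cells, and 16 KO and 3 WT endothelial cells carried UMIs of at least 3 pregranulosa markers. The part of such cells in these levels was not tested.

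Genes known as general endothelial genes were counted by a list of 26 that leaves out the selection genes. Of its 24 tested members 20 were higher and 0 lower, against 4.36% of all tested genes, with a median log2 ratio of 6.08 in KO and 6.46 in WT. Ecscr, a regulator of endothelial migration, stood at 481 CPM in KO and 542 CPM in WT endothelial cells against 1.89 and 2.23 CPM in the other somatic cells. Esam, an adhesion molecule of endothelial junctions, stood at 467 CPM in KO and 484 CPM in WT against 6.07 and 5.26 CPM. Cd34, a sialomucin, stood at 453 CPM in KO and 430.5 CPM in WT against 7.56 and 7.91 CPM. A gene restricted to endothelial cells passes the filter only where it is high there, so the counts and medians of this and the following lists describe the members that passed and support nothing further. The 4 members that were neither higher nor lower were Cd200, S1pr1, Calcrl and Arhgap29. Markers of pericytes gave another picture. Of the 8 perivascular markers Rgs5 and Higd1b had 0 UMIs in the endothelial cells of both libraries, the summed level of the 8 was at most 2.69 UMIs per 10000 in KO and 0.803 in WT, and no endothelial cell had UMIs of 3 of them. The 8 immune markers summed to at most 5.36 and 0.929, also with no cell at 3.

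Genes of VEGF signalling differed by role. The shares over all tested genes were 4.36% higher and 3.70% lower. Vegfa, the main ligand, was the 1 member of 2 tested ligands that was lower in endothelial cells, at 7.44 CPM in KO and 7.97 CPM in WT endothelial cells against 49.6 and 47.2 CPM in the other somatic cells, from 7 and 3 UMIs. Cells with perivascular markers had 24.4 and 43.6 CPM. All 4 tested receptors were higher, of which Kdr was higher by the choice of cells. Nrp1, a co-receptor, stood at 209 CPM in KO and 274 CPM in WT against 13.7 and 19.1 CPM, and Nrp2 at 105 CPM in KO and 106 CPM in WT against 9.80 and 9.14 CPM. Flt4, the receptor for Vegfc, was below the filter, with 31.9 CPM in KO and 39.9 CPM in WT against 0.0270 and 0.115 CPM. Nrp1 was not restricted to endothelial cells, with 101 and 185 CPM in cells with immune markers and 145 and 108 CPM in those with perivascular markers.

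In the angiopoietin system no ligand reached the filter. Its tested genes were the receptors Tek and Tie1 and the phosphatase Ptprb, which acts on Tek. All 3 were higher, against 4.36% of all tested genes. Tek stood at 73.4 CPM in KO and 90.3 CPM in WT endothelial cells against 0.513 and 0.538 CPM in the other somatic cells, and Ptprb at 79.7 CPM in KO and 71.7 CPM in WT against 4.24 and 3.57 CPM. The ligand Angpt1 had 0 UMIs in the endothelial cells of both libraries, where 3 UMIs would be 3.19 and 7.97 CPM. Other somatic cells had 3.45 and 2.84 CPM, and those with perivascular markers 28.2 and 18.4 CPM. Angpt2, a ligand that endothelial cells release when vessels are remodelled, had 1 UMI in each library, against 3.59 and 5.19 CPM in other somatic cells.

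In the Notch pathway the ligand Dll4, the receptor Notch1 and the feedback gene Nrarp were higher. Dll4 stood at 86.1 CPM in KO and 63.8 CPM in WT endothelial cells, and other somatic cells held 0 UMIs in KO and 0.0384 CPM in WT. Notch1 stood at 68.0 CPM in KO and 128 CPM in WT against 3.13 and 3.96 CPM. Nrarp, which is induced by Notch and dampens it, stood at 144 CPM in KO and 143 CPM in WT against 1.19 and 0.576 CPM. The targets Hes1 and Hey1 were neither higher nor lower. Hes1, a repressor used by many cell types, stood at 950.4 CPM in KO and 1007 CPM in WT against 905 and 1040.3 CPM. The paralogue Notch3, known from mural cells and 1 of the markers that set the perivascular class, had 3 and 1 UMIs in endothelial cells and 84.6 and 68.8 CPM in cells with perivascular markers, where the target Heyl had 107 and 61.9 CPM.

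Of 11 tested genes of the BMP and ALK1 pathway, 2 were higher and 1 was lower, against 4.36% and 3.70% of all tested genes. Their median log2 ratio was −0.03 in KO and −0.30 in WT. The co-receptor Eng (endoglin) stood at 214 CPM in KO and 221 CPM in WT endothelial cells against 6.67 and 7.22 CPM in the other somatic cells, and the transducer Smad1 at 113 CPM in KO and 87.7 CPM in WT against 20.6 and 20.3 CPM. The receptor Bmpr1a was lower, at 5.32 CPM in KO and 5.31 CPM in WT against 41.7 and 44.5 CPM. The target genes Id1 and Id3 were not called, and Id3 stood at 589 CPM in KO and 622 CPM in WT against 516 and 598 CPM.

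Most transcription factors of the endothelial programme were higher. Of 27 factors of the ETS, SOXF and related families 18 were tested. Of these 15 were higher and 0 lower, against 4.36% and 3.70% of all tested genes. Their median log2 ratio was 5.03 in KO and 5.47 in WT. Sox17, a SOXF factor known for its role in arteries, stood at 170.1 CPM in KO and 122 CPM in WT endothelial cells against 0.135 and 0.0384 CPM in the other somatic cells. Its relative Sox18 stood at 73.4 CPM in KO and 122 CPM in WT against 0.324 and 0.461 CPM. Sox7, the remaining SOXF gene, was below the filter with 37.2 CPM in KO and 42.5 CPM in WT and had 0 UMIs in other somatic cells. Erg, an ETS factor that maintains endothelial identity, stood at 64.8 CPM in KO and 34.5 CPM in WT against 0.108 and 0.115 CPM. Fli1, its close relative, stood at 76.5 CPM in KO and 130.2 CPM in WT against 1.30 and 1.42 CPM. Lmo2, an adaptor of blood and vessel development, stood at 268 CPM in KO and 359 CPM in WT against 2.00 and 5.45 CPM, and at 116 and 109.6 CPM in cells with immune markers. Klf2, a factor raised by blood flow, stood at 314 CPM in KO and 332 CPM in WT against 50.7 and 56.1 CPM, and at 409.8 and 337 CPM in cells with immune markers. Ets1, Etv6 and Klf4 were neither higher nor lower, and Ets1 stood at 247 CPM in KO and 170.1 CPM in WT against 68.3 and 69.9 CPM. Etv2, the factor that starts the endothelial programme in the early embryo, had 1 UMI in KO and 0 in WT.

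**Figure D3:**
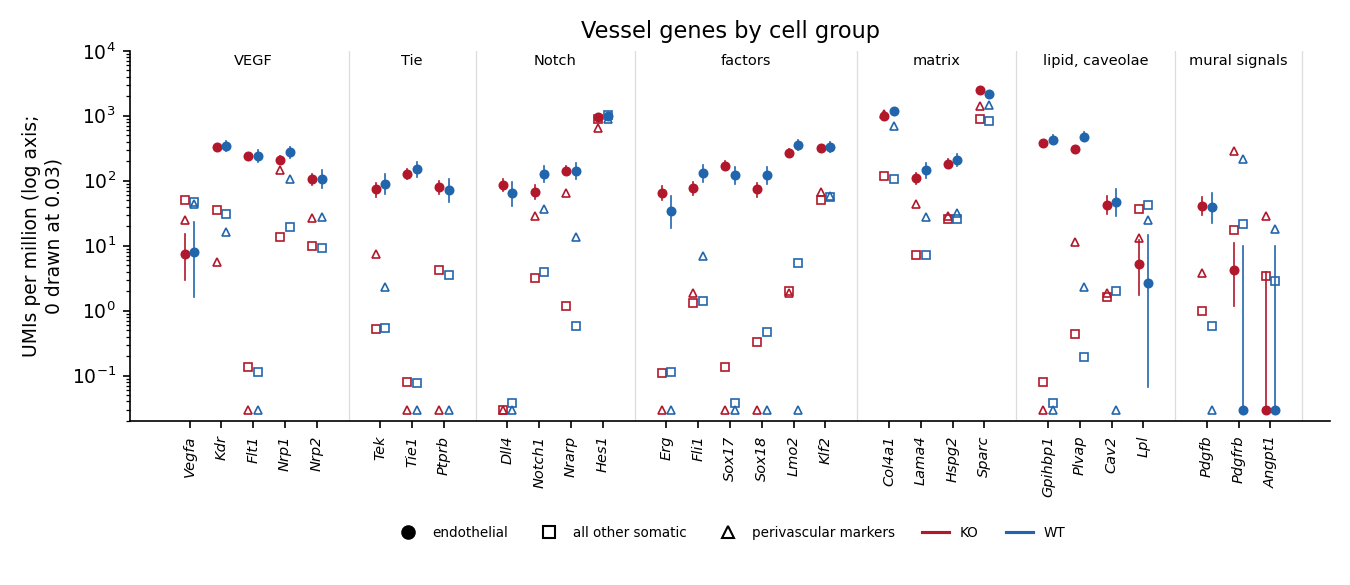
Levels of vessel genes by function (vertical axis, CPM on a logarithmic scale, with 0 drawn at 0.03) in KO (red) and WT (blue) endothelial cells (filled circles, with 95% counting intervals), all other somatic cells (open squares) and cells with perivascular markers (open triangles). VEGF and Tie receptors, transcription factors, Gpihbp1, Plvap and Cav2 are higher in endothelial than in all other somatic cells, while Vegfa and Lpl are lower. Hes1 is at a similar level, and Pdgfrb is higher in perivascular cells. Col4a1 in perivascular cells is close to the endothelial level in KO but lower in WT.

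The vessel wall was described by its junctions and its basement membrane. Over all tested genes 4.36% were higher and 3.70% lower. Of 14 tested junction genes 3 were higher, namely Esam, Jup and Gja4, and 0 were lower. Jup, which encodes plakoglobin, a partner of VE-cadherin, stood at 96.7 CPM in KO and 104 CPM in WT endothelial cells against 15.3 and 15.7 CPM in the other somatic cells. Tjp1, a scaffold of tight junctions, was not called, at 165 CPM in KO and 146 CPM in WT against 41.0 and 45.9 CPM. Of 14 tested genes of the basement membrane 6 were higher and 0 lower, with a median log2 ratio of 1.65 in KO and 1.64 in WT. Col4a1, a chain of collagen IV, stood at 994 CPM in KO and 1179.8 CPM in WT against 118 and 107 CPM, but it was 1079 and 686 CPM in cells with perivascular markers. Lama4, a laminin chain of endothelial membranes, stood at 109 CPM in KO and 146 CPM in WT against 7.23 and 7.07 CPM, and Hspg2 (perlecan) at 183 CPM in KO and 209.9 CPM in WT against 25.9 and 25.3 CPM. Col15a1 was the most restricted of them, at 127 CPM in KO and 136 CPM in WT against 2.27 and 2.96 CPM and 13.2 and 18.4 CPM in perivascular cells.

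Genes of caveolae, fenestrae and lipid uptake included 7 higher and 1 lower gene of 12 tested, against 4.36% and 3.70% of all tested genes. Cav2, Sdpr, Ehd2 and Ehd4, which shape caveolae, were higher, and Sdpr stood at 277 CPM in KO and 276 CPM in WT endothelial cells against 14.0 and 12.4 CPM in the other somatic cells. Cav1, the main caveolin, was below 4-fold, at 340.2 CPM in KO and 364 CPM in WT against 106 and 98.1 CPM. Lpl, the lipase that Gpihbp1 binds, was lower in endothelial cells, at 5.32 CPM in KO and 2.66 CPM in WT against 37.0 and 41.6 CPM, and cells with immune markers had 149 and 44.3 CPM. Of 5 tested genes of barrier transport, Abcg2, an efflux pump, was higher at 181 CPM in KO and 189 CPM in WT against 22.7 and 26.9 CPM and Lsr, a protein of tricellular junctions, was lower. Mfsd2a, the lipid transporter known from the blood-brain barrier, had 0 UMIs in endothelial cells of both libraries.

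Of 14 genes of haemostasis and vessel tone 7 passed the filter, and of 10 genes of leukocyte adhesion 5 did. Among all tested genes 4.36% were higher. Of 7 tested genes of haemostasis and vessel tone 1 was higher, Procr, the receptor of protein C, at 149 CPM in KO and 90.3 CPM in WT endothelial cells against 10.6 and 10.3 CPM in the other somatic cells. Vwf, the carrier of clotting factor VIII, was below the filter with 17 and 8 UMIs. Of 5 tested genes of leukocyte adhesion 4 were higher (Icam1, Icam2, Cd34 and Cd47), and Icam1 stood at 67.0 CPM in KO and 79.7 CPM in WT against 2.94 and 4.73 CPM. Sele, a selectin made by activated endothelium, had 0 UMIs in every somatic cell of both libraries, and Vcam1 had 1 and 6 UMIs in endothelial cells. None of 7 chemokine genes reached the filter, and Cxcl12, a chemokine, had 126 and 71.1 CPM in perivascular cells against 14 and 0 UMIs in endothelial cells. The S1P list had 1 tested gene, the receptor S1pr1, which was not called, at 81.9 CPM in KO and 98.3 CPM in WT against 39.8 and 42.4 CPM.

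Of 8 tested genes of the signals between endothelial and mural cells 4 were higher and 0 lower, against 4.36% and 3.70% of all tested genes. Pdgfb, the endothelial signal that recruits pericytes, stood at 41.5 CPM in KO and 39.9 CPM in WT endothelial cells against 0.972 and 0.576 CPM in the other somatic cells. Its receptor Pdgfrb, itself 1 of the perivascular markers, had 4 UMIs in KO and 0 in WT endothelial cells and 284 and 218 CPM in cells of that class. Tgfb1 stood at 132 CPM in KO and 85.0 CPM in WT against 7.48 and 9.26 CPM, its receptor Tgfbr2 at 74.4 CPM in KO and 69.1 CPM in WT against 6.59 and 7.34 CPM, and Hbegf was the remaining higher gene. Endothelial cells thus held the ligand of the PDGF pair and almost none of the receptor.

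Arteries, veins, lymphatic vessels and sprouting tips were examined through known marker genes, as shares of endothelial cells with at least 1 UMI. Cells were also thinned at random to 3000 UMIs each, which left out 0 cells. Germ cells are given for comparison (median 11851 UMIs per cell in KO and 17310 in WT). They include 31 KO and 1 WT barcodes that also met the endothelial rule on the 6 genes. The part of free RNA, doublets and expression by germ cells in their shares was not tested. Sox17 was found in 67.9% of KO cells and 71.0% of WT cells, against 0.291% and 0.149% of germ cells. Thinned, the shares were 38.5% and 29.0%. Gja4, a connexin of arteries and pre-arterial capillaries, was found in 17.4% (10.8 to 25.9) of KO and 9.68% (2.04 to 25.8) of WT cells, or in 9.17% and 6.45% after thinning, against 0.441% and 0.460% of germ cells. Efnb2, an arterial ligand, was found in 37.6% of KO cells and 54.8% of WT cells, but also in 21.3% and 30.9% of germ cells. Gja5, the connexin of mature arteries, was found in 0 of 109 KO cells (interval up to 3.33%) and in 1 of 31 WT cells.

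Aplnr, a gene of veins and capillaries, was found in 72.5% (63.1 to 80.6) of KO cells and 87.1% (70.2 to 96.4) of WT cells, or in 47.7% and 41.9% after thinning, against 0.265% and 0.0542% of germ cells. Nr2f2, the venous transcription factor, was found in 38.5% of KO cells and 48.4% of WT cells, but germ cells had it in 9.97% and 12.5% and other somatic cells at 87.0 and 91.8 CPM. Of 7 tested arterial genes 5 were higher than in other somatic cells (Gja4, Efnb2, Sox17, Dll4 and Nrp1), against 4.36% of all tested genes. Of 5 tested venous genes 3 were (Aplnr, Nrp2 and Emcn), of which Emcn was higher by the choice of cells. Gja4 and Aplnr were found in the same cell in 8 of 109 KO cells and in 0 of 31 WT cells.

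Lymphatic markers gave mixed levels. Flt4, also a receptor of sprouting vessels, was found in 21.1% of KO cells and 32.3% of WT cells, against 0.900% and 1.42% of germ cells, and in 7.34% and 6.45% after thinning. Mmrn1, a matrix protein, was found in 11.9% of KO cells and 16.1% of WT cells, against 0.0794% and 0.0271% of germ cells, and in 4.59% and 9.68% after thinning. Prox1, the factor that sets lymphatic identity, had 5 and 2 UMIs, in 4.59% (1.51 to 10.4) of KO cells and 6.45% (0.791 to 21.4) of WT cells. These intervals include the 2.58% and 4.90% of germ cells, and whether the UMIs are background was not tested. Lyve1, a hyaluronan receptor of lymphatic vessels and macrophages, had 0 UMIs in the 109 KO and 31 WT cells (intervals up to 3.33% and 11.2%). Cells with immune markers had 58.2 and 258 CPM. The single tested gene of the list, Pdpn, was lower, at 4.25 CPM in KO and 0 CPM in WT endothelial cells against 49.7 and 45.7 CPM in the other somatic cells. Of 4 tested genes of tip cells 2 were higher (Pdgfb and Dll4), against 4.36% of all tested genes. Apln, the ligand of Aplnr, was found in 14.7% of KO cells and 22.6% of WT cells, against 0.521% and 0.799% of germ cells, and Esm1, a secreted proteoglycan of tip cells, in 4.59% of KO cells and 9.68% of WT cells, against 0.0353% and 0%.

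The cells with a Gja4 UMI differed from the rest in several genes, and part of the arterial and venous genes followed the direction of arterial against venous. This is a description within 1 library of cells split on a measured gene, with 19 cells against 90 in KO (median 8470 and 7542.5 UMIs) and 3 against 28 in WT. In KO, Unc5b, an arterial netrin receptor, stood at 155 against 1.29 CPM in cells with and without Gja4, from 26 against 1 UMIs. Hey1, an arterial Notch target, stood at 119 against 5.18 CPM, from 20 against 4 UMIs. Dll4 stood at 202 against 60.8 CPM, a log2 ratio of 1.73 (1.05 to 2.40). Efnb2 stood at 214 against 59.5 CPM, from 36 against 46 UMIs. These 4 genes were thus higher together in cells with Gja4, but Sox17 did not separate them, at 202 against 163 CPM, since its log2 ratio of 0.31 (−0.28 to 0.87) had an interval that includes 0. The same held for Acvrl1, at 0.51 (−0.51 to 1.43), and Jag1, at 0.62 (−2.72 to 3.10), while Nrp1, at 1.25 (0.80 to 1.68), and Cxcr4, at 3.37 (1.53 to 5.52), were higher.

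Outside the arterial list, cells with Gja4 also had more transcripts of capillary lipid genes. Fabp4 stood at 327 against 40.1 CPM, a log2 ratio of 3.03 (2.37 to 3.71). Gpihbp1 stood at 774 against 303 CPM. Igfbp3, a binding protein of insulin-like growth factors, stood at 529.7 against 145 CPM, and the transcription factor Mecom at 232 against 66.0 CPM. Some venous genes and the fenestral gene Plvap lay lower, while Ephb4 and Vwf of the venous list did not separate the cells. Their log2 ratios were −0.38 (−1.92 to 0.88) and 0.50 (−1.57 to 2.20). Nr2f2 stood at 23.8 against 75.1 CPM, from 4 against 58 UMIs. Aplnr stood at 155 against 251 CPM, Emcn at 411 against 643 CPM and Plvap at 202 against 327 CPM. General endothelial genes differed too, in both directions. Cldn5 had a log2 ratio of 0.54 (0.28 to 0.79), Pecam1 of 0.45 (0.05 to 0.82), Kdr of 0.56 (0.17 to 0.94) and Cd34 of 0.64 (0.31 to 0.96), while Egfl7 had −0.62 (−0.87 to −0.37) and the interval of Cdh5 included 0, at 0.16 (−0.18 to 0.49).

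The 3 WT cells with Gja4 rest on few counts. Unc5b had 13 UMIs in them and 0 in the 28 other cells, and Igfbp3 stood at 858 against 165 CPM. Mecom stood at 348 against 97.3 CPM. Aplnr and Plvap had 0 UMIs in these 3 cells against 91 and 180 in the others. Efnb2, Gpihbp1 and Fabp4, with log2 ratios of 0.28 (−1.69 to 1.78), 0.37 (−0.39 to 1.05) and 0.43 (−0.43 to 1.19), had intervals that include 0. So did Hey1, at 1.60 (−0.92 to 3.60), Dll4, at 1.60 (−0.02 to 2.99), and Sox17, at −0.21 (−2.15 to 1.25).

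**Figure D4:**
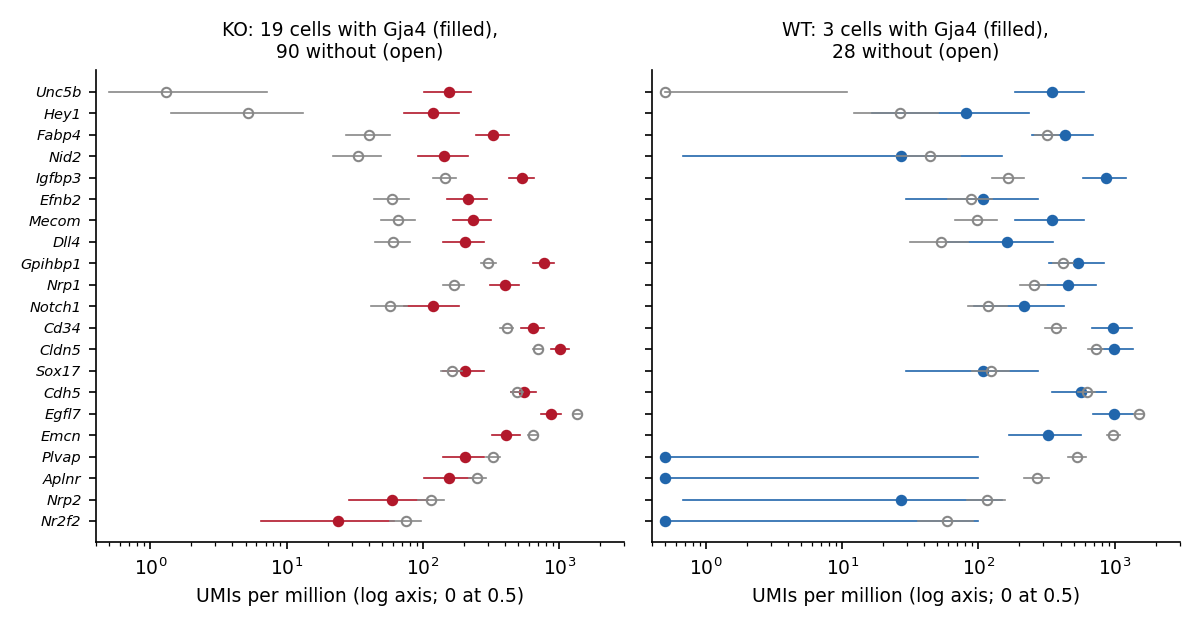
Levels (horizontal axis, CPM on a logarithmic scale, with 0 drawn at 0.5 and 95% counting intervals) of vessel genes in endothelial cells with a Gja4 UMI (filled) and without (open), in KO (19 and 90 cells) and WT (3 and 28 cells). Unc5b, Igfbp3 and Mecom lie to the right in cells with Gja4 in both panels, and Emcn, Plvap and Aplnr lie to the left, while the intervals of Hey1 overlap in WT.

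KO and WT endothelial cells were then set side by side, 109 cells against 31 from 1 pool each. Nr3c1 itself, the deleted gene, had 7 UMIs in KO and 17 in WT endothelial cells, 7.44 CPM in KO and 45.2 CPM in WT. The log2 ratio was −2.60 (−4.11 to −1.26), in the direction of the labels, and it was −1.88 in other somatic cells. UMIs were counted per gene, so it is not known whether the remaining KO transcripts held exon 3.

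Of 2717 genes with a mean of at least 50 CPM over both groups, 43 (1.58%) were 2-fold or more higher in KO and 13 (0.478%) lower, and the median log2 ratio was 0.03. The number of such genes depended on depth and filter, since thinning the cells to 3000 UMIs gave 149 and 113. Of the 5 genes with the firmest difference upward, Mt1, which encodes a metallothionein, had 123 UMIs in KO and 2 in WT, 131 CPM in KO and 5.31 CPM in WT, a log2 ratio of 4.62 (2.74 to 7.68). In KO 1 cell held 41 of these UMIs, other somatic cells had 694 and 619 CPM, and without the 22 cells that carried markers of other somatic types, an alternative chosen after the data were seen, the log2 ratio was 0.69. 2810417H13Rik, which encodes a partner of PCNA in DNA replication, had 232 against 22 UMIs, a log2 ratio of 2.08 (1.44 to 2.78), and 0.02 in other somatic cells. Stmn1, which destabilises microtubules, had 340 against 45 UMIs, a log2 ratio of 1.60 (1.14 to 2.08), and 0.90 in other somatic cells. Gm8730 and Gm10709, gene models of ribosomal protein copies whose reads may be shared with their parent genes, had log2 ratios of 1.94 (1.34 to 2.60) and 1.72 (1.14 to 2.35), and other somatic cells had 1.93 and 1.35. The 2 gene models thus differed between the libraries in other somatic cells as well.

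The 5 firmest lower genes rested on few cells. Hbb-bs, Hbb-bt and Hba-a1, adult globin genes, had 44, 12 and 37 UMIs in KO and 5525, 1878 and 3845 in WT, of which 1 WT cell held 5522, 1876 and 3838. Without that cell their log2 ratios were 2.49, 1.20 and 1.01, the opposite direction. Fabp4 had 86 UMIs in KO and 124 in WT, a log2 ratio of −1.85 (−2.26 to −1.44), and 2 WT cells held 95 of the 124. Ttf1, a transcription termination factor, had 27 and 41 UMIs, a log2 ratio of −1.92 (−2.68 to −1.19), of which 1 WT cell held 32. With a germ cell sum under 5 in place of 10 the Ttf1 ratio was 0.34. Each of the 5 genes thus drew most of its WT UMIs from 1 or 2 cells.

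Of 6 genes known to respond to GR 2 were tested between genotypes and 0 passed 2-fold. Of all tested genes 1.58% were higher and 0.478% lower. A count of 0 among 2 genes, or among the 3 of the GR chaperone list below, therefore does not set them apart. Sgk1, a kinase induced by glucocorticoids, stood at 90.4 CPM in KO and 117 CPM in WT, a log2 ratio of −0.37 (−0.91 to 0.19). It was the member that set endothelial cells apart from other somatic cells, which had 8.50 and 9.60 CPM. Tsc22d3, which encodes the mediator GILZ, stood at 71.2 CPM in KO and 74.4 CPM in WT, a log2 ratio of −0.06 (−0.72 to 0.63). Fkbp5, a chaperone partner of GR, stood at 33.0 CPM in KO and 23.9 CPM in WT, from 31 and 9 UMIs, a log2 ratio of 0.46 (−0.64 to 1.72). Klf9 had 5 and 1 UMIs, Per1 had 4 and 0, and Zbtb16 had 1 and 0. The intervals of Sgk1, Tsc22d3 and Fkbp5 include 0, and at this depth they do not exclude a difference of 1.5-fold. Of the 8 genes of the GR chaperone list 3 were tested between genotypes and 0 passed 2-fold, and none of its 5 members tested against other somatic cells was called.

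Few vessel genes passed 2-fold between genotypes, as did few of all tested genes (1.58% higher and 0.478% lower). Counts of 0 in these lists therefore do not set vessel genes apart from other genes. Among the selection genes the log2 ratio ran from −0.59 (−0.79 to −0.40) for Emcn to −0.01 (−0.21 to 0.20) for Cldn5. Of 24 tested general endothelial genes 0 passed 2-fold, with a median of −0.05 and a range of −0.65 to 0.41. Of 16 tested transcription factors 0 passed 2-fold, with a median of −0.13. The same held for the tested VEGF receptors (4), Notch genes (4), basement membrane genes (13) and junction genes (10), of which 0 passed 2-fold in either direction. Among lipid genes Fabp4 was the 1 of 10 that passed.

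Several genes of the cell cycle passed 2-fold between genotypes. Of 16 genes of G2 and M phase 10 were tested and 5 were 2-fold or more higher in KO (Birc5, Cdk1, Nusap1, Ccnb2 and Cenpe), against 1.58% of all tested genes, with a median log2 ratio of 1.01. Ccnb2, a mitotic cyclin, had 72 UMIs in KO and 9 in WT, 76.5 CPM in KO and 23.9 CPM in WT. Cenpe, a kinetochore motor, had 87 and 9 UMIs, 92.5 CPM in KO and 23.9 CPM in WT. Top2a, a topoisomerase of dividing cells, had 270 and 55 UMIs, 287 CPM in KO and 146 CPM in WT. Summed, the list had 1720 UMIs in KO and 344 in WT, a log2 ratio of 1.00 (0.83 to 1.17), against −0.02 in other somatic cells. Of 15 S phase genes 8 were tested and 1 (Mcm3) passed, and the summed log2 ratio was 0.61 (0.41 to 0.82).

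The G2 and M transcripts were spread unevenly over the cells. The highest cell held 182 of the 1720 UMIs in KO and 148 of the 344 in WT, and Scrublet marked this KO cell as a doublet. The highest 2 cells held 338 UMIs in KO and 291 in WT, which left 53 UMIs for the other 29 WT cells. Without these 2 cells of each library, an alternative chosen after the data were seen, the list stood at 1522 CPM in KO and 157 CPM in WT, and the log2 ratio was 3.28 (2.88 to 3.70). The cells left out were picked by the value compared and were a larger part of 31 WT than of 109 KO cells. This ratio therefore tells nothing about genotype, and its interval covers counting error only. The WT level before this step rested on 2 cells. At least 3 UMIs of the G2 and M list were found in 42 of 109 KO cells (38.5%) and in 9 of 31 WT cells (29.0%, 14.2 to 48.0). After thinning the shares were 29.4% (32 cells) and 9.68% (2.04 to 25.8), and in other somatic cells 13.4% and 13.1%. The WT share after thinning rests on 3 cells, and the intervals of both shares overlap. Thinning raised the summed log2 ratio to 1.72, and leaving out the 22 cells with markers of other somatic types gave 1.42. Germ cells hold transcripts of this list too, since Top2a was found in 92.2% and 94.3% of them. The part of free RNA from them was not tested.

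**Figure D5:**
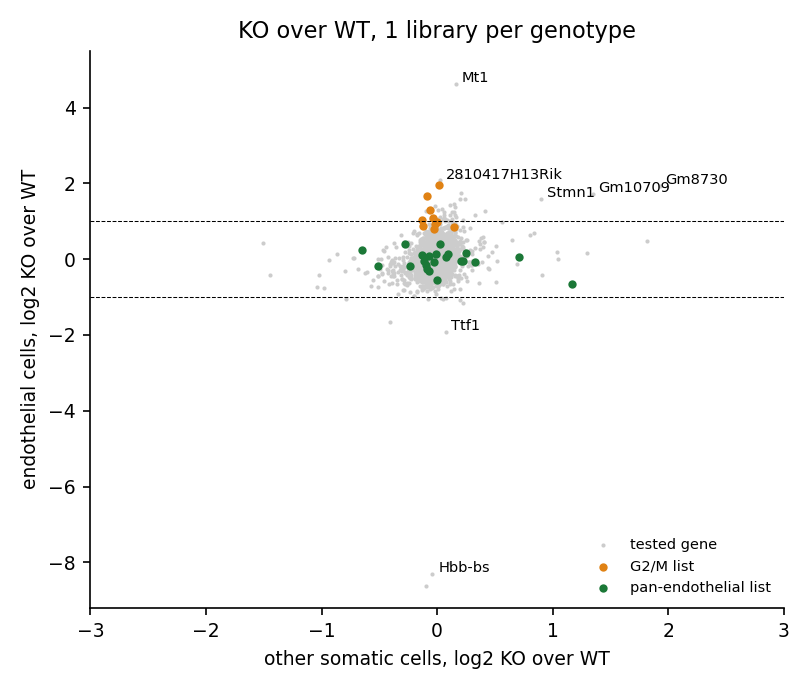
Each point is a gene tested between genotypes, placed by its log2 KO over WT ratio in other somatic cells (horizontal) and in endothelial cells (vertical, dashed lines at 2-fold), with 1 library per genotype. Genes of the G2 and M list (orange) lie above 0 on the vertical axis with a median of 1.01, general endothelial genes (green) lie around 0, and Gm8730 and Gm10709 lie high on both axes.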

How the data were processed

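Fetal ovaries (E15.5) of 2 KO and 4 WT embryos were pooled by genotype and captured as 1 droplet library each. The deposited files hold raw counts, whole numbers of UMIs for 27998 genes in each barcode, which the authors made with Cell Ranger 3.0.2 per the file headers. The submitters' processing notes name mm10 and Seurat 3.2.3, and the gene annotation was not given in the sources used here. No normalized values were used. Barcodes with at least 3000 UMIs and under 10% mitochondrial UMIs were kept (15883 of 17829 in KO and 9512 of 11430 in WT) and assigned by summed marker levels, without clustering. Other somatic cells were put in a class by their highest marker sum.

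UMIs were summed per cell group and given as CPM. Exact Poisson intervals for levels, exact Clopper-Pearson intervals for shares and exact conditional intervals for ratios (95%) cover counting error only, and a group at 0 was set to 3 UMIs in a ratio. With 1 library per genotype no test was made. The members, gene lists and alternatives were chosen with earlier results of these data known. Named against other somatic cells were the 6 selection genes, the 24 higher and 5 lower genes with the largest log2 ratio in the library nearer to 0, and list members beside their counts. Named between genotypes were the 5 genes in each direction whose interval bound nearest to 0 lay farthest from it, Nr3c1, the GR-responsive genes and the selection genes. Symbols shared by several gene IDs (56) may mix genes. Doublets were called with Scrublet through scanpy 1.11.5 (expected rate 8%) and kept in the values above. Gene positions came from GENCODE annotation of GRCm38 and promoter windows from RefSeq (GRCm38.p6). Python 3.11.15, numpy 2.4.6, scipy 1.17.1 and pandas 2.3.3 were used, and the counting of genes past each fold was tested on simulated data. Alternatives changed the limits on cells, the cuts of the endothelial and germ sums, doublets, scaling, weighting and depth of cells, the filter on low values and the comparison cells.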

Additional observations from a re-analysis of the deposited data

Results flagged for a closer look

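Barcodes outside the group described also met the endothelial rule on the 6 genes. In KO, 31 kept barcodes with a germ cell sum of 10 or more did so, against 1 in WT, and Scrublet marked 22 of the 31 as doublets. Their median was 18667 UMIs, against 7577 in KO endothelial cells. Among barcodes outside the limits on UMIs and mitochondrial share, 18 of 1946 in KO and 10 of 1918 in WT met the rule. None of these barcodes was counted among the endothelial or other somatic cells above. The kept ones were counted among all kept cells and among the germ cells. Those outside the limits were counted in the total barcodes and UMIs of the libraries.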

How the results depend on the processing

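Of 743 values of single genes, 732 kept their direction and side of the threshold. The share of somatic cells ranged from 1.98% to 2.46% in KO and from 1.32% to 1.48% in WT. Against other somatic cells, 252 genes were higher and 214 lower. Thinning gave 121 lower genes, 90 of them shared, a doubled filter gave 153 and 115, and no filter gave 2496 and 330. Fzd2 and Mia fell to −0.79 and −0.70 when thinned. The log2 ratios of Hbb-y and Hba-x turned to 0.26 and 3.95 under the study's own limits on cells and to 0.22 and 4.03 without immune and erythroid comparison cells.

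Between genotypes, 43 genes were higher and 13 lower. Leaving genes of mitochondria, ribosomal proteins and haemoglobin out of the scaling gave 70 and 41, thinning 149 and 113 (24 and 9 shared), a halved filter 152 and 67, a doubled filter 18 and 4, and no filter 1312 and 408. Ttf1 turned to 0.34 with a germ sum under 5. The summed G2 and M ratio was 1.22 as a mean over cells and 1.72 thinned. Thinned shares were 9.17% for Gja4 in KO and 47.7% and 41.9% for Aplnr in KO and WT. Leaving out cells with 3 immune or perivascular markers removed 0 cells. The remaining alternatives were chosen after seeing the data. Without the 22 cells with markers of other somatic types, Mt1 fell to 0.69 and the G2 and M ratio was 1.42. Without the WT cell rich in haemoglobin, Hbb-bs, Hbb-bt and Hba-a1 turned to 2.49, 1.20 and 1.01. Without the 2 cells of each library richest in G2 and M transcripts, a larger part of the WT than of the KO cells, that ratio was 3.28. Where no value shows it, the cause was not tested. No paired analysis was possible because each genotype is 1 library. With 31 WT cells, 3 UMIs stand for 7.97 CPM, and differences near that level were not detectable.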

Other observations

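Further lists outside the vessel genes were counted too, beside 4.36% higher and 3.70% lower over all tested genes. Of 15 tested immediate early genes 0 were called, with a median log2 ratio of 0.37 in KO and 0.10 in WT. Of 14 tested S phase and 16 tested G2 and M genes 0 were called at 4-fold. The median of the G2 and M genes was 0.96 in KO and −0.10 in WT. Summed, they stood at 1828 CPM in KO and 914 CPM in WT endothelial cells, against 919 and 931 CPM in the other somatic cells. Of 7 tested genes of hypoxia and glycolysis, Epas1, which encodes HIF-2α, was higher at 80.8 CPM in KO and 98.3 CPM in WT against 1.57 and 1.96 CPM, and Hk2, a hexokinase, was lower. Of 8 tested mesenchymal genes, Acta2 and Tagln, which mark contractile cells, were lower, and Vim, the filament vimentin, had log2 ratios of 1.90 and 1.74, below 4-fold. Of 2 tested haematopoietic genes, Kit, the receptor of stem cell factor, was higher at 54.2 CPM in KO and 55.8 CPM in WT and Runx1 lower at 11.7 CPM in KO and 5.31 CPM in WT against 63.5 and 65.0 CPM. Of 6 tested haemoglobin genes 2 were lower.

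Of 15 tested genes with histone symbols, a group chosen after the values were seen, 6 were 2-fold or more higher in KO endothelial cells and 0 lower. Of all tested genes 1.58% were higher. The median log2 ratio of the group was 0.51, against 0.01 in other somatic cells. Hist1h3c had a log2 KO over WT ratio of 2.17, Hist1h2ae of 1.74 and Hist1h1b of 1.24. In other somatic cells the ratios were 0.20, 0.21 and 0.14.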
